A study of Mus musculus with 12 samples.

Results

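Gas5 and the Snhg genes are long noncoding RNAs that carry small nucleolar RNAs (snoRNAs) in their introns. They were taken from the array as every probe set whose only annotated gene symbol was Gas5 or Snhg followed by a digit. The rule found 13 probe sets of 7 genes among 21218 single-gene probe sets of 18820 symbols, with 4 probe sets for Gas5, 3 for Snhg17, 2 for Snhg11 and 1 each for Snhg5, Snhg15, Snhg16 and Snhg20. A further 3 probe sets shared between a Snhg gene and another gene were left out. RNA came from the medial prefrontal cortex of C57BL/6N mice aged 12 weeks, without transgene or deletion. The mothers of 6 poly(I:C) offspring had received an intravenous dose of 5 mg/kg poly(I:C), which as synthetic double-stranded RNA mimics a viral infection, on gestation day 17, and those of 6 control offspring had received saline. Each animal was measured on its own Affymetrix Mouse Gene 1.1 ST array, and the labels call the animals of a group biological replicates without naming litter, sex or array strip, so p-values reflect the variation among these animals only, and littermates may be among them. The family was chosen on the poly(I:C) against control differences of Gas5 and Snhg11 themselves. The differences of those 2 genes are therefore given as a description with no p-value, while the other Snhg genes entered by name.

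Such a host RNA has an unusual life. Its spliced exons are often degraded in the cytoplasm by nonsense-mediated decay, while the excised introns are trimmed to snoRNAs that guide chemical modification of ribosomal RNA: methylation for the box C/D class and pseudouridylation for the H/ACA class. Exons, introns and mature snoRNAs of a single locus can thus differ in level. Spliced Gas5 is known to accumulate in growth-arrested cells and to bind the glucocorticoid receptor, and Snhg11 is strongly expressed in neurons.

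Host RNAs of this kind are known for transcription starts that fall on a run of pyrimidines, the 5′ terminal oligopyrimidine tract of translation-regulated RNAs. The annotated starts of the genes the results turn on are shown for that reason, with Snhg17 added as a further gene with such a run. The lines give 30 bases before and 20 bases from the RefSeq start on (GRCm38.p6), and capitals mark the longest run of C and T that begins between 5 bases before the start and the 5th base after it.
Gas5, first start, plus strand of chr1:161034571-161034620: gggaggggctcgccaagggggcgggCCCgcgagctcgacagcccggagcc
Gas5, second start, plus strand of chr1:161035136-161035185: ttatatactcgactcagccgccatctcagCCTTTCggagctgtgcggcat
Snhg11, plus strand of chr2:158375683-158375732: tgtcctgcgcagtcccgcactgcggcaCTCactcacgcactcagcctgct
Snhg17, second start, minus strand of chr2:158361490-158361539: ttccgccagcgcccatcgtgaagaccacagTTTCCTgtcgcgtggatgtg

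The second Gas5 start and the second Snhg17 start had a run of 6 bases, and 11.1% of 32851 RefSeq starts had a run of that length or longer. The first Gas5 start and the Snhg11 start had runs of 3 bases, a length reached by 53.2% of starts. Both of these runs ended before the annotated start, so they are not part of the RNA. The runs at the other starts of the 7 genes were 2 to 4 bases long, with 2 bases at the first Snhg17 start. RefSeq intervals, used without strand, placed 8 snoRNA genes inside Gas5, 3 inside Snhg16, 2 each inside Snhg11, Snhg17 and Snhg5, 1 inside Snhg15 and 0 inside Snhg20.

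Values are log2 expression as deposited, and differences are poly(I:C) minus control with the moderated standard error (SE) of limma, fitted on 23099 annotated probe sets. Of these, 653 (2.83%) passed an adjusted p under 0.05, with 467 higher and 186 lower after poly(I:C). That split moved with the scaling: quantile normalization gave 239 calls upward and 285 downward, and median centring 298 upward and 232 downward. Array medians lay between 5.15 and 5.21. Markers of neurons were among the brightest probe sets, from the 95.9th percentile for Gad1 to the 99.9th for Snap25, and those of choroid plexus lay near the 31st. Fewer cells of a type and less RNA per cell cannot be told apart in bulk tissue.

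Of the 13 host probe sets, 3 passed, 2 higher (Snhg11) and 1 lower (Gas5). Since the family was chosen for these genes, nothing is read from that share beside the 2.83% of all probe sets called, 2.02% higher and 0.805% lower. The median difference of the 13 was 0.08, against 0.003 over all probe sets tested, and 9 were above 0. Gas5 and Snhg11, on which the family was chosen, enter these values, so nothing is read from them either. The 7 probe sets of the other Snhg genes had a median of 0.04, with 4 above 0. Of all 23099 probe sets, 12006 were above 0.

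Gas5 was split. Probe set 10351037 ranged from 7.05 to 7.75 in poly(I:C) animals (median 7.30), against 8.07 to 8.26 in controls (median 8.11). All 6 poly(I:C) animals lay below every control, and they were spread more widely, with SDs of 0.25 in poly(I:C) animals and 0.07 in controls. The mean was 7.34 after poly(I:C) and 8.13 in controls, a difference of -0.78 ± 0.08 (SE, n = 6 each) or 1.72-fold lower, the 8th largest in size among all probe sets tested. The groups did not overlap in 2.37% of all probe sets, 0.636% with poly(I:C) lower.

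The other Gas5 probe sets lay the other way. Probe set 10351026 ranged from 7.11 to 7.27 in poly(I:C) animals (median 7.17), against 6.81 to 7.20 in controls (median 7.09), a difference of 0.13 ± 0.06. Probe set 10351035 ranged from 4.33 to 4.74 in poly(I:C) animals (median 4.46), against 3.97 to 4.46 in controls (median 4.33), a difference of 0.22 ± 0.08. In both, all 6 poly(I:C) animals were above the control mean but the groups overlapped, and neither passed. Probe set 10351039 was dim, at the 3.86th percentile of brightness, with 3.05 to 3.32 in poly(I:C) animals and 3.05 to 3.14 in controls, and it did not pass either. All 4 probe sets are tied to the same RefSeq RNA in the platform annotation, which gives no position within the gene, so which of them fall in exons or introns was not determined.

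**Figure D1:**
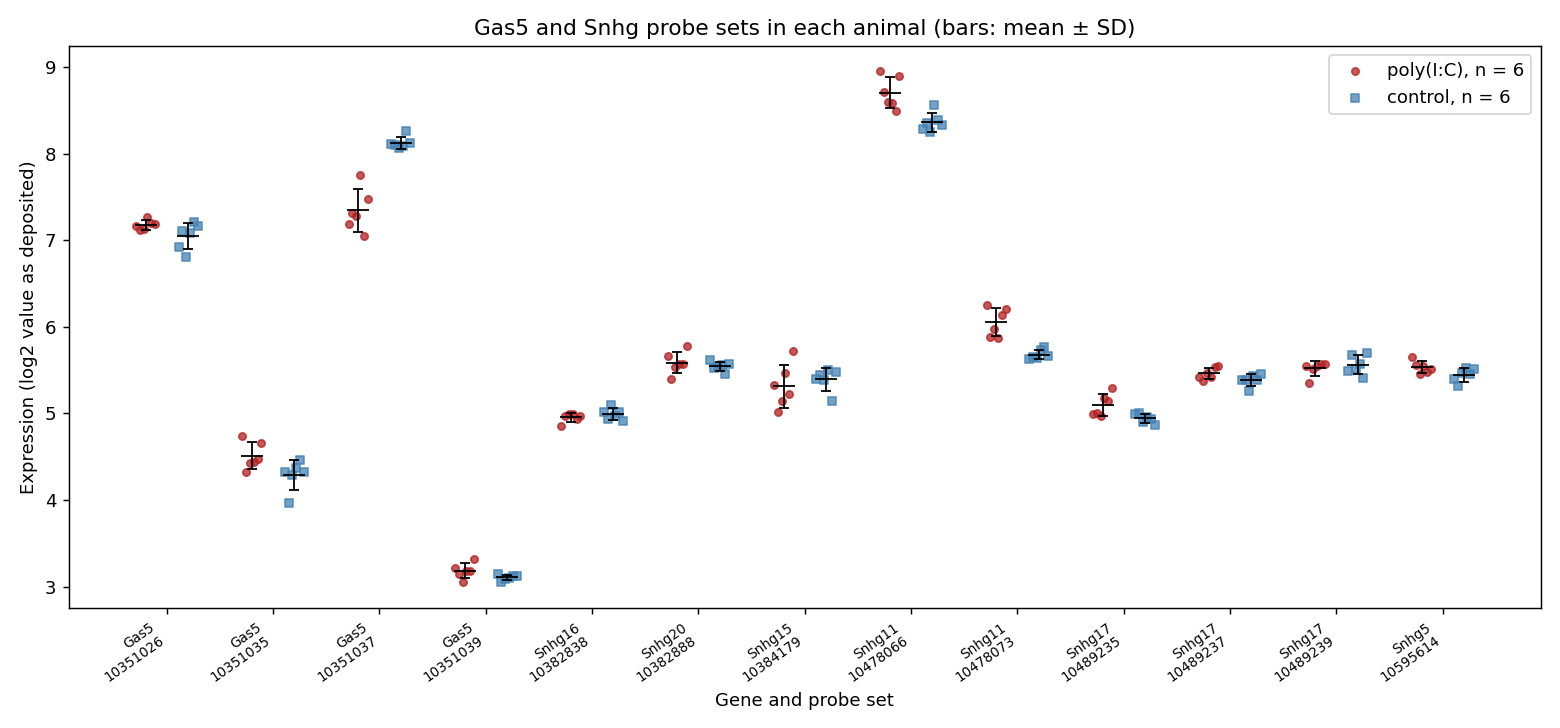
Deposited log2 expression of the 13 Gas5 and Snhg probe sets in each animal, with poly(I:C) as circles and control as squares and bars for mean ± SD (n = 6 each). Gas5 10351037 lies lower in all poly(I:C) animals (7.05 to 7.75, against 8.07 to 8.26), while the Snhg11 probe sets lie higher.

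The split among Gas5 probe sets can also be written within arrays, where an offset shared by all probe sets of an array cancels. Relative to 10351026 on the same array, 10351037 stood at -0.15 to 0.49 in poly(I:C) animals and at 0.95 to 1.26 in controls. Only the shift between groups is read here, because brightness differs between probes for reasons other than RNA level. That shift was -0.91 against 10351026, -1.0 against 10351035 and -0.86 against 10351039, and in none of the 3 did the groups overlap. These shifts are subtractions of the differences given above, so they restate the split and are not further evidence for it. Averaging the 4 probe sets gave 5.55 ± 0.09 in poly(I:C) animals and 5.64 ± 0.08 in controls (SD, n = 6 each), a difference of -0.09 in which the opposing probe sets partly cancel.

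**Figure D2:**
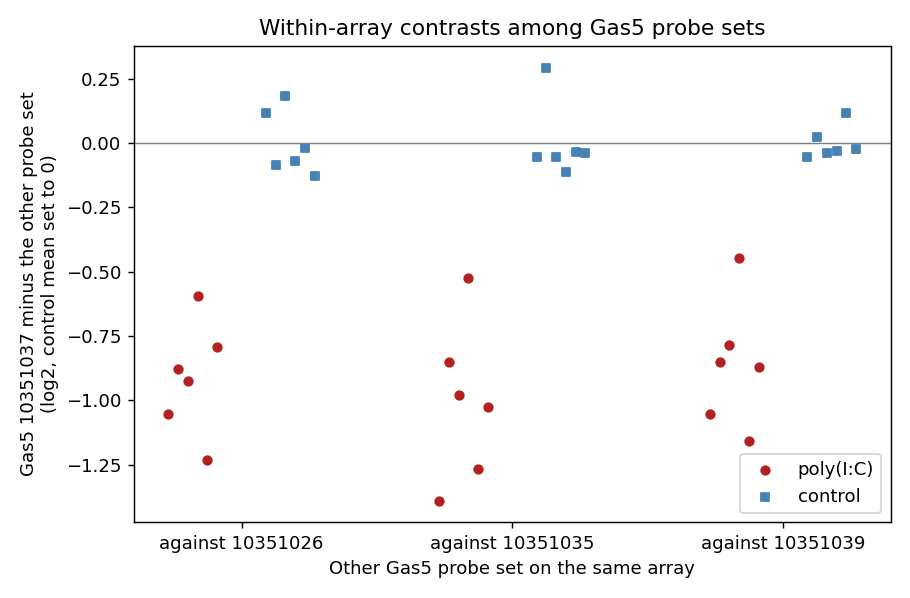
Gas5 10351037 minus each other Gas5 probe set on the same array (log2), with the control mean set to 0 and 1 point per animal. The poly(I:C) animals lie below the controls in all 3 contrasts, with mean shifts of -0.91, -1.0 and -0.86.

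Snhg11 was higher on both of its probe sets. Probe set 10478073 ranged from 5.87 to 6.25 in poly(I:C) animals (median 6.06), against 5.63 to 5.76 in controls (median 5.65). Every poly(I:C) animal lay above every control, a pattern seen in 1.73% of all probe sets, and the difference was 0.37 ± 0.06 (1.30-fold). Probe set 10478066 ranged from 8.49 to 8.95 in poly(I:C) animals (median 8.65), against 8.25 to 8.56 in controls (median 8.34). The difference was 0.34 ± 0.07 (1.27-fold), and the groups overlapped only through control 4 at 8.56, which exceeded poly(I:C) 5 at 8.49. The platform annotation ties the Snhg11 probe sets to different sequence records. Within arrays the contrast between the Snhg11 probe sets lay at 2.36 to 2.82 in poly(I:C) animals and at 2.61 to 2.83 in controls (shift -0.03). Poly(I:C) 1 and 6 were the highest animals on both, and after centring each group on its mean the probe sets correlated at r = 0.60 over the 12 animals, which share arrays between the probe sets.

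None of the 7 probe sets of the other 5 Snhg genes passed in limma, against 2.83% of all probe sets. An unadjusted p under 0.05 was found for 2 of the 7 and for 4401 of all 23099, so nothing is read from either count. For Snhg17, probe set 10489235 ranged from 4.97 to 5.29 in poly(I:C) animals (median 5.07), against 4.86 to 5.01 in controls (median 4.95), a difference of 0.15 ± 0.05 (adjusted p = 0.106 in limma). All 6 poly(I:C) animals were above the control mean, but those with the lowest values lay within the control range. Probe set 10489237 differed in the same direction by 0.08 ± 0.04 (limma adjusted p = 0.291), and 10489239 differed by -0.04 ± 0.05 (limma adjusted p = 0.684).

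Snhg5, a host of box C/D RNAs, ranged from 5.46 to 5.65 in poly(I:C) animals (median 5.53), against 5.31 to 5.52 in controls (median 5.46). The difference of 0.09 ± 0.04 did not pass (limma adjusted p = 0.241), and the ranges overlapped. Snhg15 had its widest spread in the poly(I:C) group, from 5.02 to 5.72, against 5.14 to 5.51 in controls, with a difference of -0.08 ± 0.09 and a 95% interval from -0.27 to 0.12. Snhg16, a host of the Snord1 RNAs, differed by -0.04 ± 0.04 (95% interval -0.11 to 0.04), and Snhg20 by 0.04 ± 0.05 (-0.06 to 0.15). For these 3 genes the intervals include 0 and reach no further than 0.27 in size.

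The RNAs inside the hosts were measured next. RefSeq intervals placed 10 single-gene snoRNA probe sets inside Gas5 or a Snhg gene, and only Snord47, which lies inside Gas5, had a host with probe sets of its own here. All 10 had lower means after poly(I:C), as did 11093 of all 23099 probe sets. Of the 10, 3 passed, all lower, where 0.805% of all probe sets passed in that direction. Their median difference was -0.16, against 0.003 over all probe sets tested. Because a change of snoRNAs in these data was already known when the family was chosen, these counts are a description. For the same reason the limma p-values given for these RNAs below are not fresh tests. Some of the 10 are also not separate evidence, as given below.

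Snord47, a box C/D RNA, ranged from 5.10 to 6.49 in poly(I:C) animals (median 5.68), against 6.62 to 7.04 in controls (median 6.88). The groups did not overlap, and the fall of 2.07-fold (-1.05 ± 0.18, limma adjusted p = 0.0112) was the 2nd largest difference in size among the 23099 probe sets tested. Snord87, a box C/D RNA whose interval lies inside Snhg6 and also inside Mcmdc2, ranged from 4.78 to 5.64 in poly(I:C) animals (median 5.17), against 5.87 to 6.11 in controls (median 5.99), again without overlap (-0.82 ± 0.12, limma adjusted p = 0.00294). Snora61, an H/ACA RNA inside Snhg12, ranged from 6.22 to 6.62 in poly(I:C) animals (median 6.42), against 6.53 to 6.98 in controls (median 6.78). Snora61 fell by 0.36 ± 0.07 on the log2 scale (limma adjusted p = 0.0157), with a small overlap between groups.

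The other nested RNAs did not pass. Snora44 and Snora16a, from the same host as Snora61, differed by -0.25 ± 0.15 and -0.11 ± 0.16 (limma adjusted p = 0.365 and 0.77). The Snhg3 RNAs Snora73b and Snora73a differed by -0.18 ± 0.14 and -0.13 ± 0.14 (0.514 and 0.658); they are near copies of each other, so their probe sets are not separate evidence. Snora74a of Snhg4 differed by -0.15 ± 0.15, Snord22 of Snhg1 by -0.10 ± 0.06 and Scarna13 of Snhg10, which acts in Cajal bodies, by -0.06 ± 0.08. Control 5 was the lowest control for 6 of the 7 H/ACA and Cajal body RNAs, and for 5 of those it lay below every poly(I:C) animal. Without it the same 3 of the 10 passed, and 9 instead of 3 had an unadjusted p under 0.05 in limma. Snora16a then stood at -0.27 and Snora44 at -0.38. Over all 23099 probe sets that fit gave 4568 with an unadjusted p under 0.05, against 4401 with all animals. Leaving out any other single animal kept the nested count at 3. Control 5 was singled out for its low values on these RNAs, so larger falls without it follow from that choice and are no added support.

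**Figure D3:**
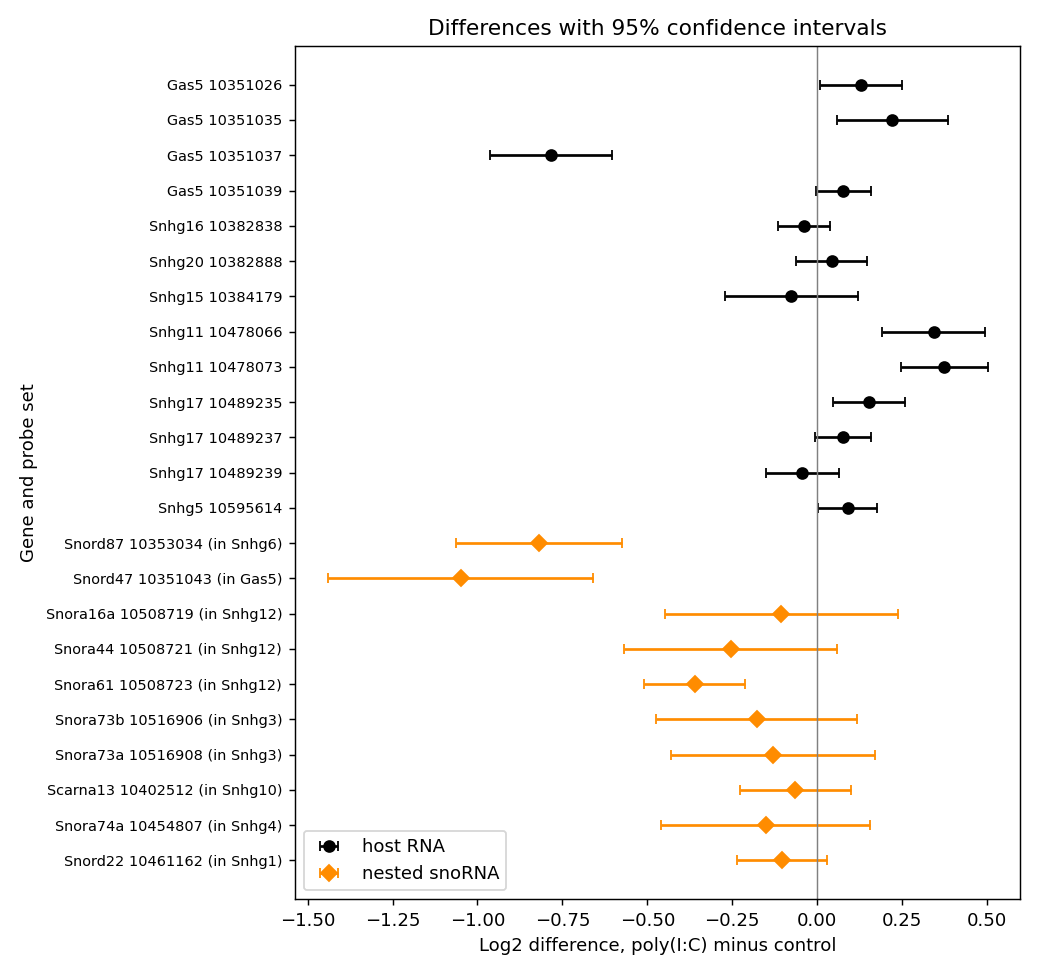
Log2 differences, poly(I:C) minus control, with 95% confidence intervals from limma, for the 13 host probe sets (circles) and the 10 snoRNA probe sets nested in Gas5 or Snhg genes (diamonds, host in brackets). Gas5 10351037 at -0.78 lies beside Snord47 at -1.05 and Snord87 at -0.82, apart from the other host probe sets.

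Among poly(I:C) animals, Gas5 10351037 varied with Snord47 and Snord87, which was not seen for Snord47 among controls. Over the 12 animals Gas5 10351037 correlated with Snord47 at r = 0.91 and with Snord87 at r = 0.96, and after centring each group on its mean at r = 0.71 and 0.82. These correlations are given as a description, since the points share arrays and the group difference enters the uncentred values. Poly(I:C) 4 had the highest value of the poly(I:C) animals on all 3 probe sets, at 7.75 for Gas5, 6.49 for Snord47 and 5.64 for Snord87. Controls varied little on Gas5 10351037 (SD 0.07, against 0.25 in poly(I:C) animals), so the centred values rest mostly on the poly(I:C) group. Control 5 was the highest control on Gas5 10351037 (8.26) and the lowest on Snord47 (6.62). Correlations within a single group were not computed. With the other Gas5 probe sets, 10351037 correlated after centring at 0.35 (10351026), 0.01 (10351035) and 0.20 (10351039). With Snord22, the remaining nested box C/D RNA, the centred correlation was -0.33, and with the 7 H/ACA and Cajal body RNAs it ran from -0.43 (Snora44) to 0.20 (Snora61).

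**Figure D4:**
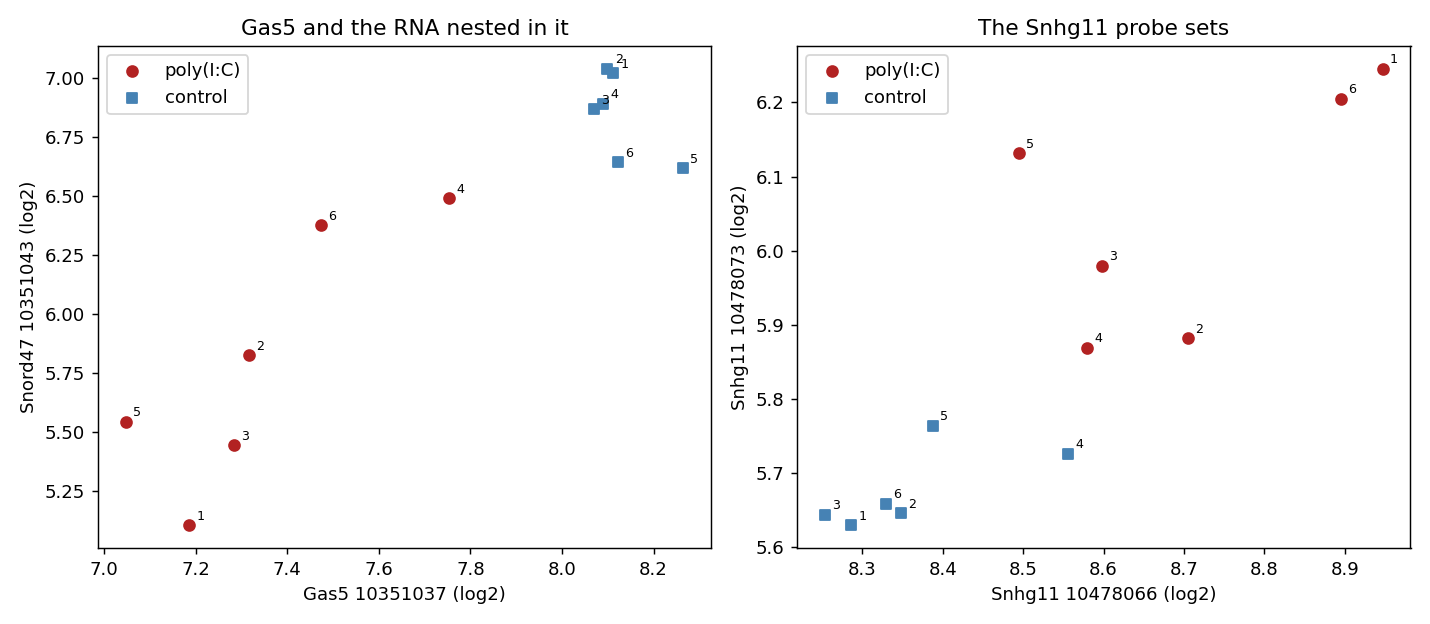
Left, Snord47 against Gas5 10351037, and right, Snhg11 10478073 against Snhg11 10478066, in log2 units with 1 numbered point per animal (circles poly(I:C), squares control). Poly(I:C) 4 and 6 lie nearest to the controls for Gas5 and Snord47, and poly(I:C) 1 and 6 are the highest for Snhg11.

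Likeness was then ranked over 21205 other single-gene probe sets by Pearson's r over the 12 animals. The ranking used uncentred values, so it favoured probe sets that share the group difference of the probe set compared. Differences of the probe sets it picked are therefore a description. Of the 5 most like Gas5 10351037, 4 were box C/D RNAs: Snord87 (r = 0.96), Snord82 (0.95), Snord73b (0.94) and Snord33 (0.94), with centred values of 0.82, 0.75, 0.71 and 0.58. The remaining gene was Rps27, which encodes a small-subunit ribosomal protein (r = 0.95, centred 0.73), lower on both of its probe sets (-0.27 and -0.23). Snord82, Snord73b and Snord33 have intervals in measured protein-coding genes, and no probe set of those hosts passed the limma test. The interval of Snord87 lies inside Snhg6, which had no probe set of its own here, and also inside Mcmdc2. Mcmdc2 differed by -0.03 (limma adjusted p = 0.684) but was dim, at 3.90 in poly(I:C) animals and 3.93 in controls. The 25th percentile over annotated probe sets was 4.34. Which of these genes is the host of Snord87 was not determined, because strand was not used. Snord33 averaged 5.30 ± 0.22 in poly(I:C) animals and 6.16 ± 0.16 in controls (SD, n = 6 each), while its host Rpl13a, a ribosomal protein gene, differed by -0.03 and -0.04 on its probe sets (limma adjusted p = 0.651 and 0.624). Snord82 differed by -0.74 ± 0.10 and its host Ncl, the nucleolin gene, by 0.03 and -0.08. The latter Ncl probe set was dim, at 3.40 in poly(I:C) animals and 3.48 in controls. Snord73b differed by -1.38 ± 0.19 and Rps3a1 by -0.02 on each of its 3 probe sets.

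The genes most like Snhg11 10478073 were Ica1 (r = 0.96), the splicing regulator Celf2 (0.96), the centrosomal gene Cep295 (0.95), Rmdn1 (0.94) and the inositol phosphatase gene Ocrl (0.94), with centred values from 0.76 to 0.91. Their differences were smaller than that of Snhg11. Rmdn1 was 0.25 ± 0.04 higher and Celf2 0.08 ± 0.03. Both are given as a description with no p-value, since the ranking favoured probe sets with a group difference like that of Snhg11.

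Lists connected to the hosts gave few calls. Of 177 probe sets of 62 other genes whose RefSeq interval contains a snoRNA, 3 rose (1.69%, against 2.83% of all probe sets) and 174 did not pass, with a median difference of -0.01. The called ones were Cep295 (0.17 ± 0.03, limma adjusted p = 0.0133) and both probe sets of Cop1, a ubiquitin ligase gene (0.15 ± 0.04 and 0.16 ± 0.04, limma adjusted p = 0.0377 and 0.039). Both Cop1 calls were lost without control 1, 2 or 3, without poly(I:C) 1, 3, 4 or 6, after either rescaling and over all rows of the table (limma adjusted p up to 0.0937). Many hosts on this list are ribosomal protein genes, whose probe sets can pick up near-identical copies.

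Of 19 probe sets of nonsense-mediated decay factors, 1 rose (5.26%, a single call, against 2.02% of all probe sets): Smg1, the kinase that phosphorylates the central helicase of the pathway, averaged 8.18 ± 0.06 in poly(I:C) animals and 7.98 ± 0.07 in controls (SD, n = 6 each; 0.20 ± 0.04 SE, limma adjusted p = 0.0129), with no overlap. The other 18 did not pass, and the list's median difference was 0.04, with Upf2 at 0.04 and Upf1 at -0.01. Of 17 probe sets of box C/D core and assembly proteins 0 passed in limma, against 2.83% of all probe sets. An unadjusted p under 0.05 was found for 2 of the 17, Nop56 (0.08 ± 0.03) and the methyltransferase gene Fbl (-0.11 ± 0.04), and for 4401 of all 23099 probe sets. Of 18 probe sets of glucocorticoid response genes, 1 fell (5.56%, against 0.805% of all probe sets, again a single call): Mt1, a metal-binding metallothionein, averaged 8.75 ± 0.06 in poly(I:C) animals and 8.93 ± 0.06 in controls (-0.18 ± 0.04 SE, limma adjusted p = 0.017), with no overlap. The receptor gene Nr3c1 differed by 0.08, Fkbp5 by -0.08 and Tsc22d3 by -0.01, none past the threshold, and the list's median difference was -0.02.

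In 2 of the cell type lists some markers passed. The 4 oligodendrocyte markers were all lower on average in the poly(I:C) group, with Cldn11 (-0.44 ± 0.08) and Mobp (-0.50 ± 0.09) past the threshold. Of all probe sets, 0.805% passed in that direction. The log2 of their summed signal ran from 9.36 to 9.94 in poly(I:C) animals and from 9.98 to 10.31 in controls. The 3 striatal markers were lower on average too, with Ppp1r1b past the threshold (-0.27 ± 0.06, limma adjusted p = 0.0281, or up to 0.0674 without poly(I:C) 1, 3 or 4 or control 2 or 6), and their summed signal ran from 7.75 to 7.92 in poly(I:C) animals and from 7.96 to 8.66 in controls. Beside these sums, single probe sets whose groups did not overlap, with poly(I:C) lower, made up 0.636% of all tested. None of the markers of neurons, astrocytes, microglia, endothelium or choroid plexus passed in limma. After centring within groups, the oligodendrocyte sum correlated with Gas5 10351037 at r = -0.59 and with Snhg11 10478073 at r = 0.53 over the 12 animals, and the striatal sum at 0.08 and 0.19. Without controls 5 and 6 together, the animals highest for striatal markers in an earlier analysis, Gas5 10351037 differed by -0.75 and Snord47 by -1.16. The part of the oligodendrocyte markers in the Gas5 and Snhg11 differences was not tested.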

How the data were processed

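Total RNA of 12 animals was measured on GeneAtlas strips, with 1 array per animal. The authors deposited log2 expression per probe set. The submitters' processing notes list RMA and Partek 6.6 with neither role nor order. The genome build behind the values is not given there. The protocols in the labels name both 3′ and whole-transcript labelling kits, and which was used, and so whether short RNAs or their precursors were read, is not settled. Quantile steps of the RMA kind can compress small differences. The number of arrays limits the precision.

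Gene names came from the platform annotation, whose symbols may be outdated. Of 35556, 23099 carried a gene and were tested, and 21185 of 21218 single-gene probe sets were matched by gene identifier to RefSeq GRCm38.p6, used for names, for which genes lie inside others and for the printed starts. That table gives no strand, so genes nested on the opposite strand were not removed as planned. The test was two-sided, from limma 3.58.1 under R 4.3.3 (lmFit, then eBayes, group as the only term), and p-values were adjusted by Benjamini-Hochberg over all tested probe sets. Errors after ± are SE for differences and SD for means. The fit was tested on simulated data for this comparison with 23099 probe sets: shifts of 0.25 (log2) were called in 78% of cases and shifts of 0.5 in 100%, beside 11 false calls. Simulated probe sets were drawn independently, with the same spread in both groups. The real arrays need not meet either condition, so these rates may not hold for them.

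All probe sets of members and nested RNAs are named, up to 6 called members of each list or otherwise the 2 with the lowest p, and the 5 genes most like the leading Gas5 and Snhg11 probe sets. Hosts of like snoRNAs, the second Rps27 probe set, Upf1, Upf2, Nr3c1, Fkbp5 and Tsc22d3 were added after their values were seen. Members and lists were chosen with earlier results of these data known. Same-numbered animals of the groups deviated from their group means at r = -0.0922 to 0.11, so the numbers were not taken as pairs. Python 3.11.15, numpy 2.4.6, pandas 2.3.3 and matplotlib 3.10.9 were used. Alternatives were median centring, quantile normalization, array weights, the replicate block, filters on dim probe sets, all rows, eBayes with trend and robust, and leaving out animals.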

Additional observations from a re-analysis of the deposited data

Results flagged for a closer look

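In 10 of 110 groups of 6 animals examined, where chance gives about 1 in 20, a single animal stood apart from its group by a gap of more than 0.625 of the group's range. Control 5 did so 3 times. Its Gas5 10351037 value was 8.26, above the other controls (8.07 to 8.12). Its Snhg15 value was 5.14, below the others (5.39 to 5.51), and its Snora16a value was 7.86, below the others (8.66 to 9.02). Control 2 had a Gas5 10351035 value of 3.97, below the others (4.29 to 4.46). Poly(I:C) 2 had a Snhg17 10489239 value of 5.35, below the others (5.52 to 5.58), and poly(I:C) 1 had a Nop56 value of 8.82, above the others (8.72 to 8.76). Poly(I:C) 4 had a Mobp value of 7.73, below the others (8.18 to 8.39), and a Rpl13a 10389522 value of 8.90, above the others (8.76 to 8.80). Control 3 had an Nr3c1 value of 7.43, below the others (7.61 to 7.71), and control 6 had a Tsc22d3 value of 6.62, below the others (6.79 to 6.83).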

How the results depend on the processing

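The 55 named probe sets were refitted under the 21 alternatives, or as many as kept the probe set, which gave 1137 values: 1081 kept their direction and side of the threshold, 46 were no longer past it and 10 changed direction. As a description, Gas5 10351037 ranged from -0.87 to -0.72, Snhg11 10478073 from 0.34 to 0.41 and Snhg11 10478066 from 0.29 to 0.39. Beside 3 for Snhg11 10478066, calls were lost for Ppp1r1b (7 alternatives, limma adjusted p up to 0.0674, with 0.0538 without controls 5 and 6 together), Ocrl (14 alternatives) and the Cop1 probe sets (11 each, also without control 4 for 10350923 and without poly(I:C) 5 for 10606160). Ocrl was picked by its likeness to Snhg11, so its calls are a description. The changes of direction were in differences near 0 that did not pass: Ncl 10356312 at -0.0034 after quantile normalization, with 1 animal left out Upf1 (-0.027 to 0.0059), Tsc22d3 (-0.046 to 0.027) and Rps3a1 10407120 (-0.067 to 0.027), and without controls 5 and 6 together Rpl13a 10563101 at 0.013 and the Rps3a1 probe sets at 0.014, 0.0073 and 0.0068. Counts of calls among the 13 host probe sets were 2 (without control 2, without control 3 and over all rows) or 3, from which nothing is read, and 3 with the replicate number as a replicate block, which changed only the call of Ocrl. Of the 10 nested snoRNAs 3 passed, or 2 of the 8 kept at the 50th percentile of brightness. Over all probe sets, 653 calls became 414 when all 35556 rows were tested, where more tests share the adjustment, and 536 with the replicate block. Leaving out 1 animal gave 230 (without control 2) to 818 calls (without poly(I:C) 2), with 281 without control 3, 331 without control 1, 236, 396, 302 and 392 without poly(I:C) 1, 3, 4 and 6. The 3 calls of other snoRNA hosts became 1 after quantile normalization, median centring or testing all rows, 6 at the 50th percentile of brightness, and 1 to 3 with 1 animal left out (1 without control 1, 2 or 3 or poly(I:C) 1, 3, 4 or 6); the cause was not tested.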
